A study of Mus musculus with 14 samples.

Results

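Myc and the genes of ribosome biogenesis form a growth programme of activated lymphocytes, and 41 of them were examined here in murine Th1 rep cells. The 41 genes were taken by name, each as the probe set of its symbol with the highest mean log2 intensity, out of 18193 genes that the arrays measured with a probe set of a single symbol. All 41 were on the arrays and all 41 were among the 10916 genes tested, the brightest 60% by mean log2 intensity. They comprised Myc itself, 4 nucleolar histone chaperones and shuttling proteins, 3 proteins of the box C/D and 4 of the box H/ACA small nucleolar ribonucleoproteins, 5 genes of RNA polymerase I and its factors, 12 of the small subunit processome and 40S assembly, 10 of large subunit assembly, and the nucleolar factors Ddx21 and Mybbp1a.

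Th1 rep cells are CD4+ T cells of OT-II mice, 6 to 10 weeks old, which carry a transgenic T cell receptor for an ovalbumin peptide and were driven through 4 rounds of stimulation in culture with IL-12 and a block of IL-4. They were loaded with 1 µM of Antagomir-31, a synthetic RNA that binds and blocks miR-31, or with 1 µM of the scrambled control Antagomir-SCR, and all cells of both treatments were reactivated through CD3 and CD28 directly afterwards. RNA was hybridised to 14 Affymetrix arrays, with 2 Antagomir-31 and 2 Antagomir-SCR arrays at 36 h, 2 and 2 at 48 h, and 3 and 3 at 72 h. The sources do not say that replicates came from separate cultures, so the p-values cover only the spread among these arrays, and that spread may be technical.

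Ribosome biogenesis begins in the nucleolus, where RNA polymerase I transcribes the precursor of the large ribosomal RNAs. The small subunit processome folds and cuts this precursor towards the 40S subunit, box C/D and box H/ACA particles guide its methylation and pseudouridylation, and a separate chain of assembly factors builds the 60S subunit. MYC, a transcription factor that binds E-box sequences as a dimer with MAX, is known to drive many of these genes, and their output rises in T cells that leave rest and begin to divide.

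The sequence below is the mature strand of miR-31 that Antagomir-31 is directed against, shown because it defines the treatment, with its seed, bases 2 to 8, in capitals. It lies at chr4:88910614-88910635 on the minus strand (RefSeq, GRCm38.p6).
mmu-miR-31-5p: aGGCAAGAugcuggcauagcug

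Promoters are shown for 5 of the genes because they differ in the E-box CACGTG that MYC and MAX bind and in the values given further on. Nop2 and Mybbp1a were among the genes that stood highest at 72 h relative to 36 h, and Rrn3 held 2 copies of the motif. Tsr1 had the smallest p of the treatment comparison. Noc3l, which held no copy, stood lowest at 72 h relative to 36 h. These 5 do not stand for the rest. In the values given further on, Nop56, which held no copy, had 0.56 and Ltv1, which held the motif, had -0.16. Each window runs 5′ to 3′ over 300 bases, from 250 bases before to 50 after the annotated start (RefSeq, GRCm38.p6), and the E-box is in capitals. The windows are chr6:125131633-125131932 on the plus strand for Nop2, chr11:72441077-72441376 on the plus strand for Mybbp1a, chr16:13780449-13780748 on the plus strand for Rrn3, chr11:74897830-74898129 on the plus strand for Tsr1 and chr19:38819188-38819487 on the minus strand for Noc3l.
Nop2: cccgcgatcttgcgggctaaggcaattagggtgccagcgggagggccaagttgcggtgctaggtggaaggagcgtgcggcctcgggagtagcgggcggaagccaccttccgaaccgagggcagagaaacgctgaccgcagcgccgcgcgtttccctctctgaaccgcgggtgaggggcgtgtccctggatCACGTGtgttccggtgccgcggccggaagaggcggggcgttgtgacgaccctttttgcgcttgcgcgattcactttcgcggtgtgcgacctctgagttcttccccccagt
Mybbp1a: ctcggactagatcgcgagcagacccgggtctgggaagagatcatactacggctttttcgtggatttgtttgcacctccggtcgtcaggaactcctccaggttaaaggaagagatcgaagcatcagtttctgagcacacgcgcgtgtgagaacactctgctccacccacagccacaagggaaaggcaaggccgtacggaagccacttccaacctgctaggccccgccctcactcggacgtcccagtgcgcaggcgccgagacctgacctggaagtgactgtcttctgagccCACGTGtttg
Rrn3: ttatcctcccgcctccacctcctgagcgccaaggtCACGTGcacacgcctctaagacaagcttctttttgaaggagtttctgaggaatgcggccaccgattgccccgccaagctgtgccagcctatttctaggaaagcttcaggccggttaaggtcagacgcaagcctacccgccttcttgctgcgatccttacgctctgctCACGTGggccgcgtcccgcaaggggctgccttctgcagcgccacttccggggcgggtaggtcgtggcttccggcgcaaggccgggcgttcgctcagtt
Tsr1: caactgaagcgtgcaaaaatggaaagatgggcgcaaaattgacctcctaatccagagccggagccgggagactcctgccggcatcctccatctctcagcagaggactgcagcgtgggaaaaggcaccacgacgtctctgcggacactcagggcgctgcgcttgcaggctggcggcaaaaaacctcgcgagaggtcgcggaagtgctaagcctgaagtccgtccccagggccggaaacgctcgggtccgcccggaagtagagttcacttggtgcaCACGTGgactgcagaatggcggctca
Noc3l: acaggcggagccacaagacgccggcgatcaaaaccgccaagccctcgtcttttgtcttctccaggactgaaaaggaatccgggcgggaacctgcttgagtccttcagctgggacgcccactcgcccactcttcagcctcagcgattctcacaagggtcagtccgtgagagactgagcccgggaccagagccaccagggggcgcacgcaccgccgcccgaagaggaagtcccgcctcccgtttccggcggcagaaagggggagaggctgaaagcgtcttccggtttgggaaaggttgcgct

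The motif CACGTG, which reads the same on both strands, was found in the window of 9 of the 36 members that the promoter table holds (25.0%), against 11.7% of the genes tested and 8.09% of all genes with a window. These 9 were Nop2, Grwd1, Ltv1, Utp20, Pes1, Mybbp1a, Tsr1, Rrn3 and Wdr43. The first base of the motif lay at position -60 from the start in Nop2, at 24 in Tsr1, at 40 in Mybbp1a and at -215 and -48 in Rrn3. Median GC content was 59.7% in the windows of the members and 60.7% in those of the genes tested. No other feature of base composition was compared. No window was used for Myc, Bop1, Rrp12, Fbl and Npm1. A match is a description of the letters and not a site of binding.

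The values are intensities on a linear scale as the authors deposited them. The 36 h arrays had medians of 23.4 to 23.8, the 48 h arrays of 21.8 to 22.1 and the 72 h arrays of 27.9 to 28.4, close within a time and apart between times, so the treatments were compared only within a time. Xist, the RNA that coats the inactive X chromosome of females, had 2427 to 3208 at 72 h, against 13.3 to 24.2 at 36 h and 48 h. The Y-linked gene Eif2s3y had 5.17 to 5.81 at 72 h, against 758 to 881 at 36 h and 48 h, and Kdm5d and Uty behaved likewise. The cells of the 72 h arrays were thus of female and those of the 36 h and 48 h arrays of male origin, in both treatments. These genes were chosen after their values were seen. Differences between 72 h and the earlier times therefore cannot be told apart from differences between the animals, while each comparison of treatments stayed within 1 sex. The defining T cell genes were present in every group, with mean intensities of 374 to 653 for Cd3e and 155 to 271 for Cd4. The means of Ifng, the Th1 cytokine, were 8382 and 8580 at 72 h, against 15330 to 16790 at the earlier times. B cell and erythroid markers were all below the filter. The actin 3′ to 5′ log2 ratio, a sign of RNA quality, lay between 0.32 and 0.43 on the arrays of the earlier times and between 0.21 and 0.27 on those of 72 h.

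In the comparison of Antagomir-31 with Antagomir-SCR, none of the 41 genes passed an adjusted p of 0.05 in limma at 36 h, 48 h or 72 h. Over all genes tested, the share that passed was 0% at 36 h, 0% at 48 h and 1.1% at 72 h (120 genes, 54 higher and 66 lower). This last count was not stable. It was 9 to 107 on leaving out each array (9 without Antagomir-31 replicate 2 of 72 h, 10 without replicate 3 of either treatment), 22 with the replicate number as a block, 11 with only the arrays of 72 h, and 422 where the prior variance was allowed a trend. At an unadjusted p under 0.05, 0 of the 41 genes stood at 36 h (5.36% of all genes tested), 0 at 48 h (5.99%) and 6 at 72 h (17.7%). The members' median log2 difference was 0.01 at 36 h, -0.01 at 48 h and -0.01 at 72 h, against 0.0008, -0.0075 and -0.0089 over all genes tested. The mean was higher with Antagomir-31 for 26 of 41 members at 36 h (50.6% of all genes), 18 at 48 h (45.6%) and 17 at 72 h (46.2%). Counts on this level of p lay near or below the background at each time.

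The intervals give the precision of each difference over these arrays, whose spread may be technical. Each is a 95% interval for 1 gene and not for the 41 together. Across the 41 genes, the 95% confidence intervals of the log2 difference reached no further than -0.29 and 0.22 at 36 h, -0.27 and 0.24 at 48 h, and -0.26 and 0.33 at 72 h. The members' standard errors had a median of 0.06 at the earlier times and of 0.05 at 72 h. Averaged over the 3 times, none of the members passed either (0.0183% of all genes did), 1 had an unadjusted p under 0.05 (9.47% of all genes), and the intervals lay between -0.16 and 0.16. The change of the effect between 36 h and 72 h was tested in the same limma fit and passed for none of the members (0.0183% of all genes), nor did the change between 48 h and 72 h (0.0366%). At an unadjusted p under 0.05 these changes counted 2 members (10.8% of all genes) and 1 member (10.1%).

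**Figure D1:**
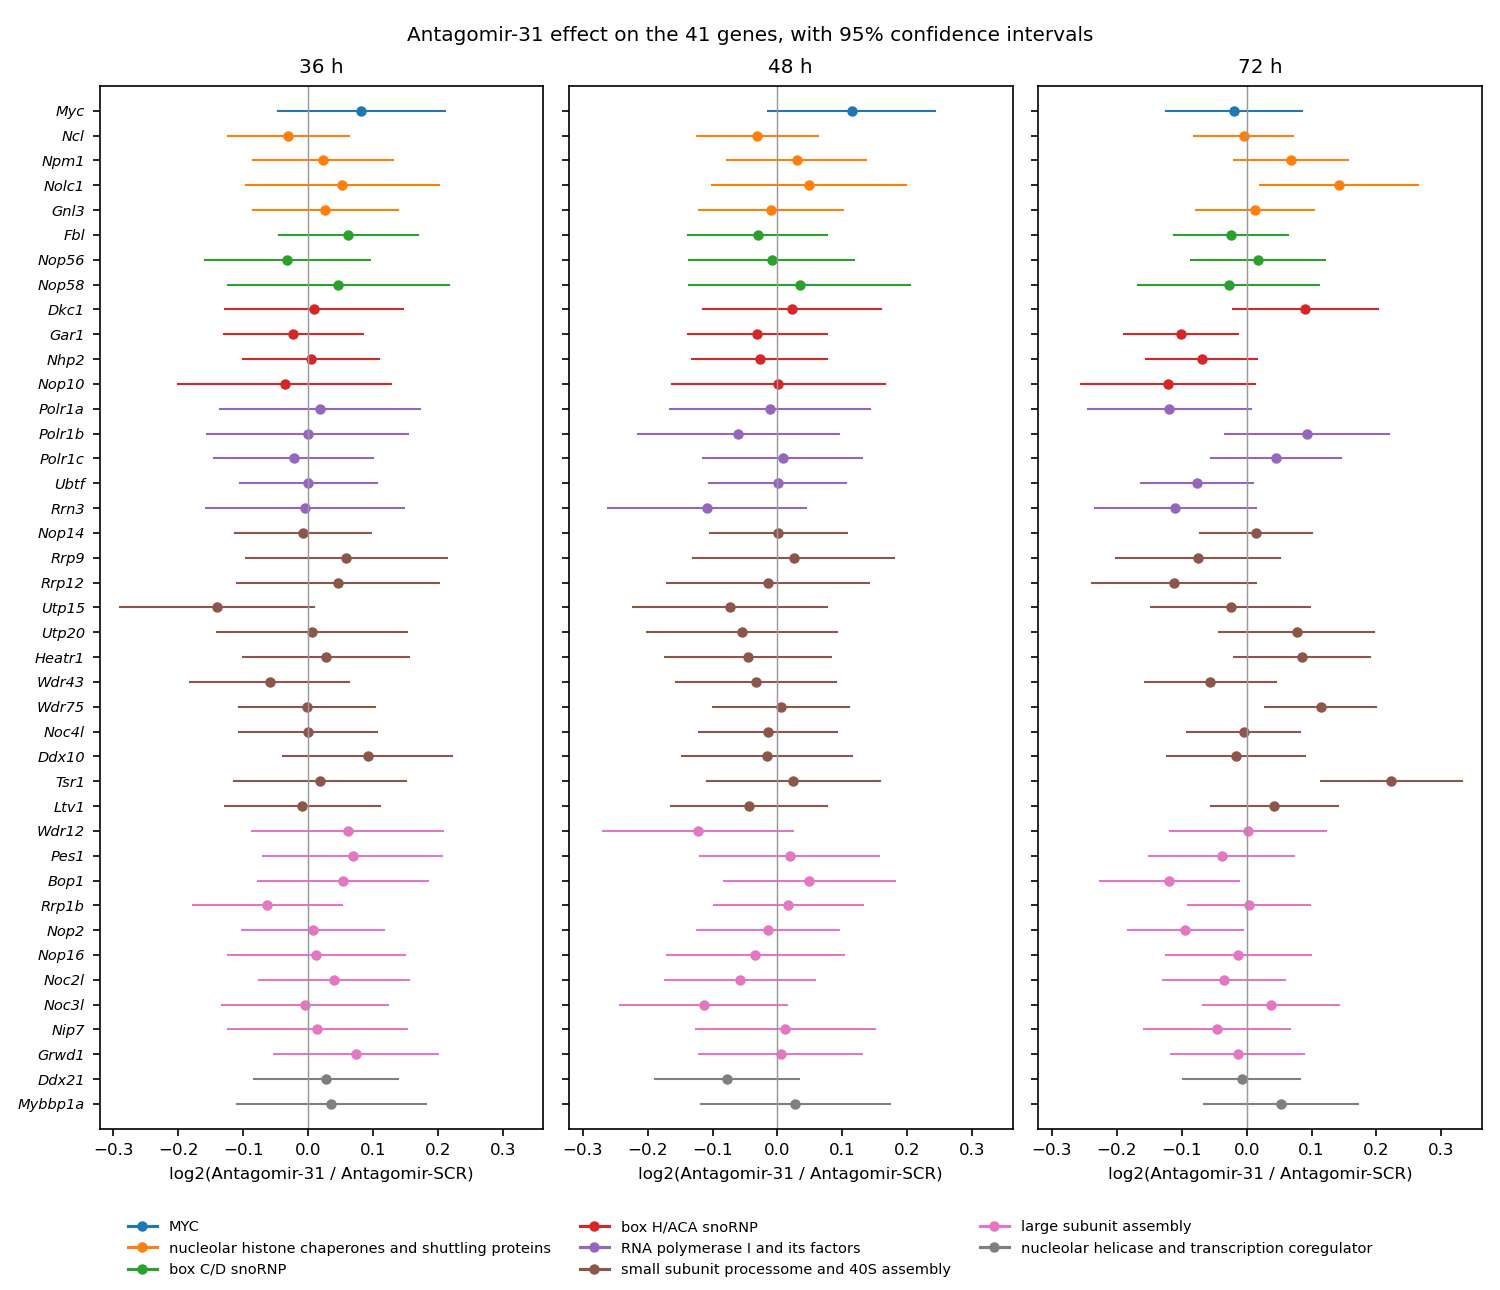
Log2 difference between Antagomir-31 and Antagomir-SCR (x axis) for each of the 41 genes (y axis, grouped by role), at 36 h, 48 h and 72 h, with points for the limma estimate and bars for its 95% confidence interval. At 36 h and 48 h every bar crosses 0, and at 72 h those of Tsr1, Wdr75 and Nolc1 lie above it and those of Gar1, Bop1 and Nop2 below it.

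Myc had intensities of 990.0 and 1071 with Antagomir-31 and of 1010 and 937 with Antagomir-SCR at 36 h, with arrays that overlapped. At 48 h it had 965 and 1018 with Antagomir-31 and 887 and 944 with Antagomir-SCR. At 72 h it had 2272, 2237 and 2357 with Antagomir-31 and 2317, 2354 and 2285 with Antagomir-SCR. Both Antagomir-31 arrays stood above both Antagomir-SCR arrays at 48 h, and the arrays overlapped at the other times. The log2 difference was 0.08 at 36 h (95% confidence interval -0.05 to 0.21), 0.11 at 48 h (-0.01 to 0.24, limma adjusted p = 0.85) and -0.02 at 72 h (-0.12 to 0.09, adjusted p = 0.88). Myc has a single probe set on this array, so no other reading of the transcript was at hand.

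Among the chaperones and shuttling proteins, Nolc1, which accompanies small nucleolar ribonucleoproteins between the nucleolus and Cajal bodies, differed most. It had 1541, 1465 and 1462 with Antagomir-31 at 72 h, against 1273, 1301 and 1483 with Antagomir-SCR. A single Antagomir-SCR array, replicate 4, reached into the range of the Antagomir-31 arrays. At 36 h it had 1127 and 1132 with Antagomir-31 and 1092 and 1085 with Antagomir-SCR, and at 48 h 988 and 986 with Antagomir-31 and 917 and 993 with Antagomir-SCR. The log2 difference was 0.14 (standard error 0.06, limma adjusted p = 0.22), and its other 2 probe sets gave 0.10 and -0.07. Npm1, nucleophosmin, the brightest of this group, had 10208, 9831 and 9779 with Antagomir-31 at 72 h and 9386, 9461 and 9588 with Antagomir-SCR. These arrays did not overlap, yet the difference was a log2 of 0.07 (adjusted p = 0.41). Earlier it had 8868 and 8484 with Antagomir-31 and 8279 and 8803 with Antagomir-SCR at 36 h, and 8410.5 and 8135 with Antagomir-31 and 8096 and 8109 with Antagomir-SCR at 48 h. Ncl, nucleolin, had a difference of -0.004 by its brightest probe set at 72 h, and -0.05, 0.14, 0.24 and -0.02 by its other 4 from the brightest to the dimmest. Gnl3, nucleostemin, had 0.01.

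The box C/D proteins, which carry the methylation of ribosomal RNA, stayed within -0.03 and 0.02 at 72 h. Fbl, fibrillarin, the methyltransferase and the brightest of them, had 3029, 3143 and 2983 with Antagomir-31 and 3133, 3131 and 3045 with Antagomir-SCR at 72 h, a log2 difference of -0.02 (95% confidence interval -0.11 to 0.06). Its arrays had 2327 and 2288 with Antagomir-31 and 2211 and 2212 with Antagomir-SCR at 36 h, and 2027 and 2177 with Antagomir-31 and 2146 and 2144 with Antagomir-SCR at 48 h. Nop56 and Nop58, the paired core proteins of the particle, had 0.02 and -0.03. The 4 proteins of the box H/ACA particle, which carries pseudouridylation, did not lie on the same side of 0. Dkc1, dyskerin, the pseudouridine synthase, had 0.09, while Gar1, Nhp2 and Nop10 had -0.10, -0.07 and -0.12, each with Antagomir-31 arrays wholly below the Antagomir-SCR arrays. Nhp2, the brightest of the 4, had 3650, 3741 and 3706 with Antagomir-31 and 3994, 3905 and 3749 with Antagomir-SCR. At 36 h these were 2749 and 2825 with Antagomir-31 and 2755 and 2803 with Antagomir-SCR, and at 48 h 2417 and 2527 with Antagomir-31 and 2535 and 2503 with Antagomir-SCR, and at both times they overlapped. Of these, Gar1 had the smallest adjusted p (0.22). For Dkc1 the other probe sets gave 0.006 and 0.235, and the larger value came from a probe set whose probes match more than 1 transcript.

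RNA polymerase I genes were split as well. Polr1c, a subunit that RNA polymerase I shares with RNA polymerase III and the brightest of the group, had 1444, 1402 and 1373 with Antagomir-31 and 1368, 1328 and 1394 with Antagomir-SCR at 72 h, a log2 difference of 0.05. It overlapped at the earlier times too, with 1220.1 and 1328 with Antagomir-31 and 1252 and 1335 with Antagomir-SCR at 36 h, and 1220.5 and 1209 with Antagomir-31 and 1236 and 1181 with Antagomir-SCR at 48 h. The large catalytic subunits gave -0.12 for Polr1a and 0.09 for Polr1b. Ubtf, which binds the ribosomal DNA, and Rrn3, which links the polymerase to its promoter factors, had -0.08 and -0.11. The smallest adjusted p of these 5 genes was 0.31.

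The smallest p of all 41 genes belonged to Tsr1, which acts in the late maturation of the 40S subunit. At 72 h it had 1650, 1639 and 1570 with Antagomir-31, against 1457, 1399 and 1310 with Antagomir-SCR. Every Antagomir-31 array was above every Antagomir-SCR array, which was so for 24.2% of all genes in either direction. The log2 difference was 0.22 (standard error 0.05), or 1.17-fold with a 95% confidence interval of 1.08 to 1.26, and the limma adjusted p over all genes was 0.056. At 36 h Tsr1 had 1181 and 1275 with Antagomir-31 and 1210 and 1214 with Antagomir-SCR, and at 48 h 1089 and 1051 with Antagomir-31 and 1021 and 1083 with Antagomir-SCR. At these earlier times the arrays of the treatments overlapped, with log2 differences of 0.02 and 0.02. The difference between its effects at 72 h and 36 h was 0.20 (adjusted p = 0.39). Its second probe set gave 0.11 at 72 h, and both probe sets belong to the class whose probes match more than 1 transcript. Tsr1 passed the threshold in 3 of 24 alternative settings, with adjusted p from 0.0072 to 0.19. Those 3 were a filter at a mean log2 of 6, median centring, and a prior variance that follows intensity.

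Wdr75, a subunit of the part of the processome that also acts in ribosomal DNA transcription, came next at 72 h. It had 833, 835 and 820.0 with Antagomir-31 and 767, 799 and 734 with Antagomir-SCR, a log2 difference of 0.11 (standard error 0.04, adjusted p = 0.16). Its arrays were 787 and 800 with Antagomir-31 and 794 and 795 with Antagomir-SCR at 36 h, and 698 and 697 against 700 and 690 at 48 h. The arrays of the treatments were apart at 72 h and overlapped at the earlier times, but the effect at 72 h did not differ by the test from that at 36 h (difference 0.12, 95% confidence interval -0.02 to 0.25, limma adjusted p = 0.52) or at 48 h (0.11, -0.03 to 0.24, adjusted p = 0.58). Utp15, of the same part of the processome, had 350 and 340 with Antagomir-31 and 413 and 351 with Antagomir-SCR at 36 h, a log2 difference of -0.14 (standard error 0.07, limma adjusted p = 0.98). Its Antagomir-SCR replicates differed by more than the treatments did. It had 319.7 and 312 with Antagomir-31 and 334 and 330.5 with Antagomir-SCR at 48 h, and 509.7, 487 and 500.0 with Antagomir-31 and 484, 515 and 525 with Antagomir-SCR at 72 h. Ddx10, an RNA helicase whose yeast counterpart acts on early precursors, had 1015 and 1077 with Antagomir-31 and 957 and 1006 with Antagomir-SCR at 36 h, a difference of 0.09. It had 989 and 1026 with Antagomir-31 and 1028 and 1009 with Antagomir-SCR at 48 h, and 965, 962 and 958 with Antagomir-31 and 1041, 963 and 919 with Antagomir-SCR at 72 h, with arrays that overlapped at both times. The remaining processome genes, Nop14, Rrp9, Rrp12, Utp20, Heatr1, Wdr43, Noc4l and Ltv1, had differences between -0.11 and 0.09 at 72 h.

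In large subunit assembly, Bop1, a scaffold of the PeBoW complex, had 572, 602 and 627 with Antagomir-31 and 633, 655 and 668 with Antagomir-SCR at 72 h. Nop2, a methyltransferase of the large ribosomal RNA, had 648, 650 and 691 with Antagomir-31 and 697, 710 and 716 with Antagomir-SCR. For both genes the highest Antagomir-31 array stayed just under the lowest Antagomir-SCR array. The log2 differences were -0.12 (adjusted p = 0.24) and -0.09 (adjusted p = 0.26). At 36 h Bop1 had 333.01 and 353 with Antagomir-31 and 332.91 and 328 with Antagomir-SCR. At 48 h it had 297 and 289 with Antagomir-31 and 270.3 and 296 with Antagomir-SCR. Nop2 had 416 and 395 with Antagomir-31 and 408 and 398 with Antagomir-SCR at 36 h, and 371 and 362 with Antagomir-31 and 366 and 375 with Antagomir-SCR at 48 h. At 36 h both Antagomir-31 arrays of Bop1 stood above both Antagomir-SCR arrays, the reverse of 72 h. The arrays of Bop1 at 48 h and of Nop2 at both earlier times overlapped. Pes1 and Wdr12, the partners of Bop1, had -0.04 and 0.00. Noc3l, an assembly factor of the 60S precursor, had 243 and 245 with Antagomir-31 and 261 and 267 with Antagomir-SCR at 48 h, a difference of -0.11 (limma adjusted p = 0.85). At 72 h its arrays overlapped, at 292, 286 and 264 with Antagomir-31 and 273, 277 and 270 with Antagomir-SCR. At 36 h it had 298 and 324 with Antagomir-31 and 303 and 320.2 with Antagomir-SCR. Nip7, the brightest gene of the group, which acts in 60S assembly, had 1231, 1248 and 1206 with Antagomir-31 and 1320, 1291 and 1196 with Antagomir-SCR at 72 h. It had 1106 and 1196 with Antagomir-31 and 1088 and 1193 with Antagomir-SCR at 36 h, and 1054 and 1093 with Antagomir-31 and 1082 and 1047 with Antagomir-SCR at 48 h, so its arrays overlapped throughout. Of the nucleolar coregulators, the helicase gene Ddx21 had -0.01 and Mybbp1a, a repressor of MYB, had 0.05. Mybbp1a had 1436 and 1390.4 with Antagomir-31 and 1419.5 and 1339 with Antagomir-SCR at 36 h, 1287 and 1409 with Antagomir-31 and 1302 and 1339.9 with Antagomir-SCR at 48 h, and 2236, 2276 and 2209.9 with Antagomir-31 and 2326, 2146 and 2020.4 with Antagomir-SCR at 72 h.

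In all, the arrays of the treatments did not overlap for 12 of the 41 genes at 36 h (29.3% of all genes), 10 at 48 h (33.2%) and 12 at 72 h (24.2%). By the chosen probe sets, Npm1 was above at both 48 h and 72 h, and Ncl and Utp15 were below at both 36 h and 48 h. The other probe set of Utp15 gave -0.017 at 36 h and 0.024 at 48 h. Those of Ncl, from the brightest to the dimmest, gave -0.018, -0.055, 0.026 and 0.042 at 36 h. At 48 h they gave 0.006, -0.027, 0.142 and -0.007. The other probe set of Npm1 gave 0.035 at 48 h and 0.013 at 72 h. Gar1 was below at each of the 3 times, by -0.02, -0.03 and -0.10. Bop1 was above at 36 h and below at 72 h. The shares of all genes that repeated or reversed were not computed. At 72 h 5 genes lay above (Npm1, Utp20, Heatr1, Wdr75 and Tsr1) and 7 below. Other measures moved with the treatments at that time. Summed over 4 dendritic cell markers, the intensity lay between 384 and 439 in Antagomir-31 cells and between 491 and 499 in Antagomir-SCR cells, carried by Cd74 (means 217 and 268) and H2-Ab1, while the defining markers Itgax and Flt3 were below the filter. The 5 macrophage and monocyte markers summed to between 200.5 and 210.2 in Antagomir-31 cells and between 194 and 198 in Antagomir-SCR cells. Of these, Adgre1 and Cd68 were below the filter. The means of Csf1r were 73.9 with Antagomir-31 and 69.4 with Antagomir-SCR, those of Cd14 51.4 and 49.9. Lyz2 went the other way, with 39.1 and 39.8. The 3 measured markers of CD8 T and NK cells summed to between 79.5 and 80.6 in Antagomir-31 cells and between 82.0 and 83.6 in Antagomir-SCR cells. At the earlier times these sums were 55.05 to 67.3. Only Cd8a passed the filter, and its means at 72 h were alike (36.10 with Antagomir-31 and 36.07 with Antagomir-SCR). Cd8b1 and Ncr1 were below the filter. The 6 T cell genes measured summed to between 17240 and 17450 in Antagomir-31 cells and between 17560 and 17990 in Antagomir-SCR cells. Ifng was the largest part of this sum, and its mean was lower in Antagomir-31 cells (8382 against 8580). Cd3g (2808 against 2971), Thy1 (3464 against 3502) and Tbx21 (1747 against 1855) were lower there too. Cd3e (653 against 637) and Cd4 (271.2 against 268.8) were higher. The part of all these markers in the values of the 41 genes was not tested. In such bulk samples, fewer cells of a type and less RNA per cell cannot be told apart.

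**Figure D2:**
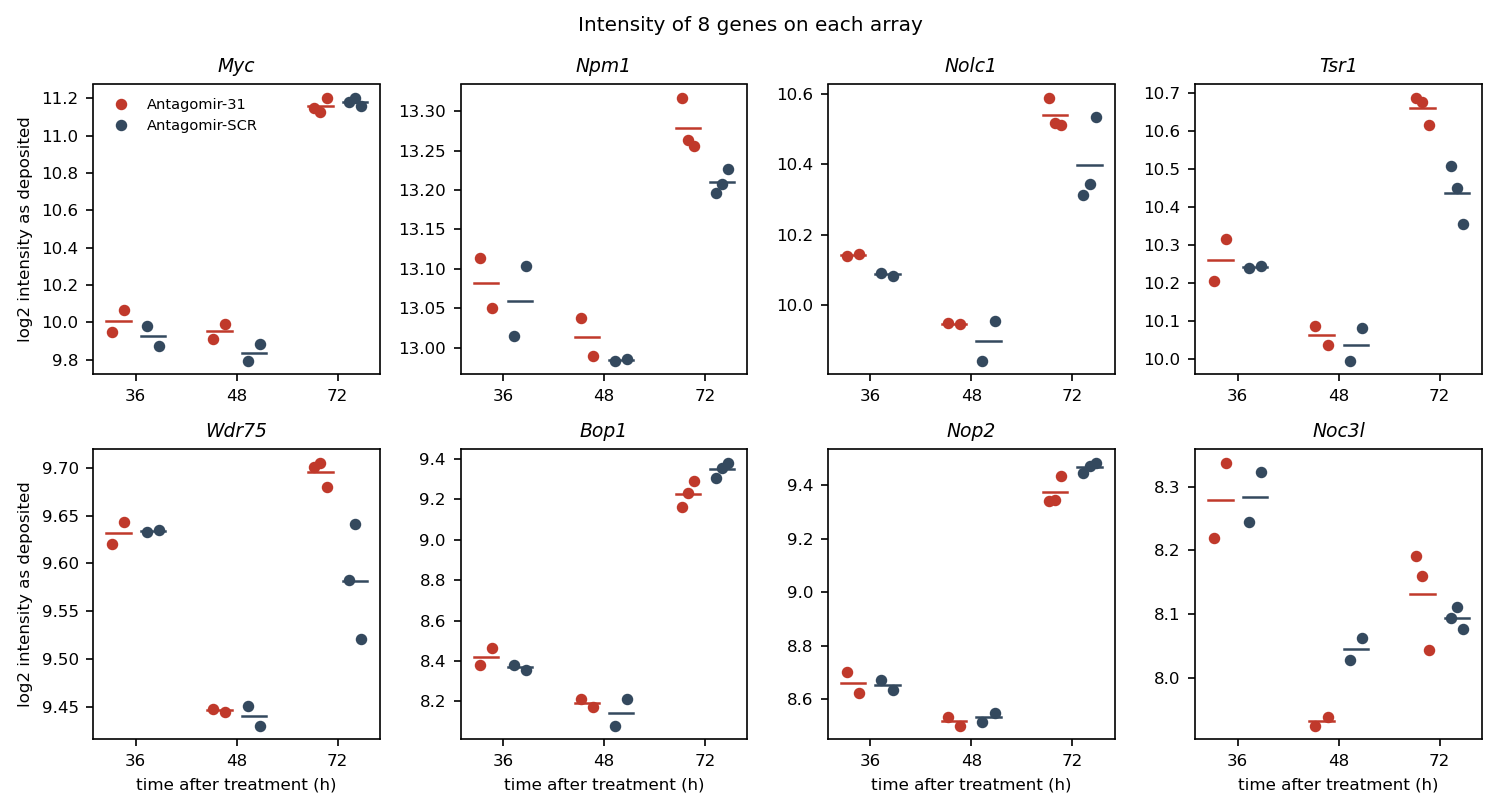
Log2 of the deposited intensity (y axis) of 8 genes, a point for each array, against the time after treatment (x axis, hours), with horizontal bars at the group means. Tsr1 and Wdr75 have Antagomir-31 arrays above all Antagomir-SCR arrays at 72 h and overlap at 36 h and 48 h, and Myc stands at 2237 to 2357 in both treatments at 72 h, against 887 to 1071 at the earlier times.

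The second question was how the 41 genes moved with time in the control cells. For this description the tested genes were quantile normalized over all 14 arrays, no p was computed, and a gene counted as past the fold where the log2 difference was at least 0.5 and the arrays of both times did not overlap. The genes did not stand lower as a group at 72 h. Under quantile normalization their median difference between 72 h and 36 h was 0.23 in Antagomir-SCR cells (mean 0.22), against 0.03 over all genes tested, and 32 of 41 were higher (52.5% of all genes). Past the fold, 6 were higher (14.9% of all genes) and 0 lower (13.4%). Between 48 h and 36 h the median was -0.03, against -0.005 over all genes, with 11 of 41 higher (48.8% of all genes), 30 lower and none past the fold in either direction (2.09% of all genes higher, 1.81% lower). Between 72 h and 48 h it was 0.25, against 0.04 over all genes, with 34 of 41 higher (53.6%), 7 genes past the fold and higher (13.4%) and none lower (12.1%). Other measures moved with time as well, among them Xist, the actin ratio and Ifng as given above and Cd74, which had 217 with Antagomir-31 and 268 with Antagomir-SCR at 72 h, against 65.4 with Antagomir-31 and 67.4 with Antagomir-SCR at 36 h, and their part in these values was not tested.

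The scaling sets how many genes appear to stand higher. As deposited, all genes tested shifted by a median log2 of 0.28 between 36 h and 72 h and the members by 0.43. Higher were 38 of 41 members (73.9% of all genes). After median centring of each array the members' median was 0.09 and that of all genes -0.07. By that scaling 24 of 41 members were higher (44.3% of all genes). Relative to all genes, the members' median was thus higher by 0.15 as deposited and after median centring and by 0.21 after quantile normalization. The 5276 tested genes in the same range of mean intensity as the members, 193 to 8932, had a median of 0.25 as deposited, 0.03 after quantile normalization and -0.10 after median centring. Of the 41 genes, 24 were higher at 72 h than at 36 h under each of the 3 scalings. Lower under each were 3 (Noc3l, Wdr75 and Ddx10), and the sign of 14 depended on the scaling. Median centring moves every gene of an interval by the same amount, so its agreement with the deposited values is no separate check. Past the fold and higher between 72 h and 36 h were 15 members as deposited and 2 after median centring, where 1 was also lower, and between 72 h and 48 h they were 22 as deposited and 4 after median centring. For 30 of the 41 the 48 h value was below the 36 h value under each scaling. The median of all genes tested between these times was below 0 too, at -0.042 as deposited, -0.005 after quantile normalization and -0.024 after median centring. Of the 5276 genes in the members' range of intensity, 36.7%, 49.1% and 41.6% were higher at 48 h under these scalings. The share of all genes with the same sign under each scaling was not computed. Nor was the share past the fold as deposited or after median centring, so these counts of members have no background beside them. As deposited, the median shift of all genes tested was 0.28 between 36 h and 72 h and 0.32 between 48 h and 72 h.

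Myc stood furthest apart over time. After quantile normalization it had 1026 and 1097 with Antagomir-31 and 1047 and 973 with Antagomir-SCR at 36 h, and 1045 and 1102 with Antagomir-31 and 955 and 1020 with Antagomir-SCR at 48 h. At 72 h it had 2158, 2084 and 2259 with Antagomir-31 and 2181, 2217 and 2172 with Antagomir-SCR. Every array of 72 h stood above every array of the earlier times, by 2.17-fold between 72 h and 36 h in Antagomir-SCR cells. Of all genes tested, 2.77% had a difference as large or larger. The log2 difference of 1.12 was 1.25 as deposited and 0.91 after median centring, and 1.03 in Antagomir-31 cells.

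Next came Bop1, with 525, 547 and 571 in Antagomir-31 cells and 571, 596 and 606 in Antagomir-SCR cells at 72 h, against 356 and 378 in Antagomir-31 cells and 358 and 349 in Antagomir-SCR cells at 36 h. Its log2 difference was 0.58 in Antagomir-31 cells and 0.74 in Antagomir-SCR cells. The PeBoW complex of Pes1, Bop1 and Wdr12 joins the 60S precursor as a unit, and its other proteins had 0.42 and 0.33 in Antagomir-SCR cells. Nop2 had 593, 592 and 632 with Antagomir-31 and 632, 647 and 652 with Antagomir-SCR at 72 h, against 444 and 423 with Antagomir-31 and 439 and 421 with Antagomir-SCR at 36 h. The other genes past the fold in Antagomir-SCR cells were Nop56 (0.56), Noc2l (0.51) and Mybbp1a (0.51). In the box C/D particle, Fbl and Nop58 followed Nop56 with 0.38 and 0.33, and the 3 were higher under each scaling.

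The box H/ACA proteins were not uniform. Dkc1 and Nhp2 had 0.29 and 0.37 and were higher under each scaling, while Gar1 and Nop10 had -0.08 and -0.04 with a sign that depended on it. In RNA polymerase I, Rrn3, Polr1b and Polr1a had 0.34, 0.26 and 0.25, Ubtf had 0.17 and Polr1c -0.07. The 12 processome and 40S genes had the median nearest that of all genes of any role, 0.11, and held 7 genes that were higher and 5 that were lower after quantile normalization. Rrp12, an export factor, and Utp20 led them with 0.39 and 0.37.

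The lowest value of all belonged to Noc3l. It had 262, 256 and 236 with Antagomir-31 and 239, 245 and 236 with Antagomir-SCR at 72 h after quantile normalization, against 319 and 348 with Antagomir-31 and 328 and 341 with Antagomir-SCR at 36 h. Every 72 h array lay below every 36 h array, with a log2 difference of -0.41 in Antagomir-31 cells and -0.48 in Antagomir-SCR cells. Its relative Noc2l stood on the other side, with 0.44 in Antagomir-31 cells and 0.51 in Antagomir-SCR cells. Wdr75 had 767, 772 and 760 with Antagomir-31 and 695, 738 and 672 with Antagomir-SCR at 72 h, against 822 and 826 with Antagomir-31 and 820.4 and 820.2 with Antagomir-SCR at 36 h. The values of Ddx10 were 900, 899 and 891 with Antagomir-31 and 965, 899 and 856 with Antagomir-SCR at 72 h, against 1057 and 1106 with Antagomir-31 and 1002 and 1038 with Antagomir-SCR at 36 h. Wdr75 and Ddx10 had log2 differences of -0.23 and -0.17 in Antagomir-SCR cells. Neither was past the fold.

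In Antagomir-31 cells, which were measured on separate arrays, the members' median difference between 72 h and 36 h was 0.25, and 4 were past the fold and higher (13.9% of all genes) and none lower (12.5%). The sign was the same in both treatments for 37 of 41 genes, and the share of all genes for this was not computed. Both treatments shared the change of sex between the times, so the agreement is no separate check of time. The difference between the treatments had a median size of 0.07 and reached at most 0.19, in Tsr1. Of the 36 members with a promoter window, the 9 with an E-box had a median difference of 0.34 in Antagomir-SCR cells and ranged from -0.16 (Ltv1) to 0.58 (Nop2). The 27 without it had a median of 0.17 and ranged from -0.48 (Noc3l) to 0.56 (Nop56), so the ranges overlapped almost wholly.

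**Figure D3:**
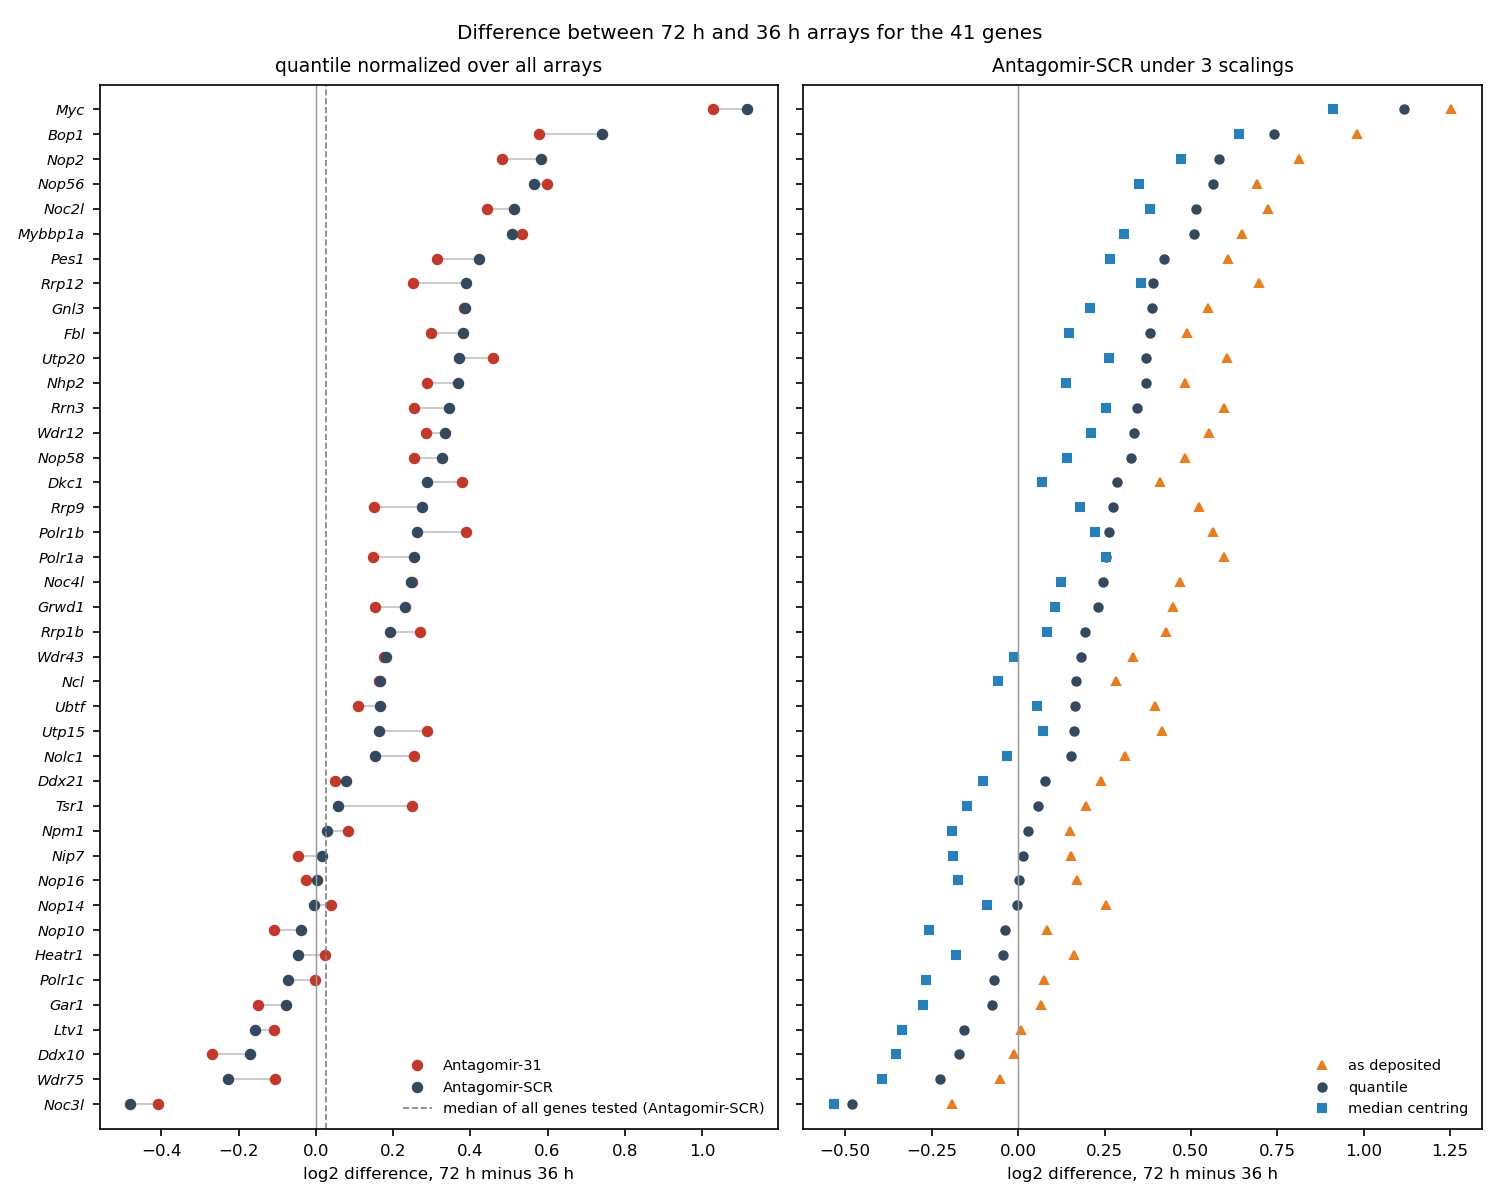
Log2 difference between 72 h and 36 h (x axis) for each of the 41 genes (y axis, ordered by the Antagomir-SCR value), on the left for Antagomir-31 and Antagomir-SCR after quantile normalization, with a dashed line at the median of all genes tested, and on the right for Antagomir-SCR as deposited, after quantile normalization and after median centring. Myc stands apart at 1.12 in Antagomir-SCR cells, Noc3l is lowest at -0.48, and the sign of 14 genes depends on the scaling.

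Genes of the same pathway outside the 41 were read from 10 lists. In the Myc and Max network, none of the 18 genes tested passed the test of treatment at 72 h. Max, the partner of MYC, had 247 ± 20.6 with Antagomir-31 and 299 ± 18.9 with Antagomir-SCR (SD, n = 3 each), a log2 difference of -0.28 (limma adjusted p = 0.081). Trrap, a coactivator scaffold that MYC recruits, had -0.16 (adjusted p = 0.15). With time, Mycn, the N-MYC gene, stood furthest apart, with a mean deposited intensity of 828 at 72 h and 159 at 36 h in Antagomir-SCR cells and a log2 difference of 2.12 after quantile normalization. Mxi1, which competes with MYC for MAX, followed with 1.18. The median of the list was 0.11 between 72 h and 36 h, and 4 genes were past the fold and higher and 1 lower (22.2% and 5.56%, against 14.9% and 13.4% of all genes).

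Of 39 other growth genes linked to Myc, none passed the test of treatment. The glutamine carrier gene Slc1a5 had a log2 difference of -0.20 (adjusted p = 0.080) and Odc1, ornithine decarboxylase, had 0.13 (adjusted p = 0.15) at 72 h. With time this list had a median of 0.15. Srm, spermidine synthase, had 0.74 and Mthfd2, a mitochondrial folate enzyme, had -0.67.

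The other ribosome biogenesis lists lay near the median of all genes over time. Between 72 h and 36 h the median was 0.03 for 50 other genes of the small subunit processome, 0.00 for 52 others of large subunit assembly and 0.06 for 12 others of RNA polymerase I, against 0.23 for the 41 genes and 0.03 for all genes tested. After median centring these medians were -0.10, -0.14 and -0.055, against 0.09 for the 41 genes and -0.07 for all genes. In the small subunit list the kinase gene Riok2, which acts on the 40S precursor, had 471 ± 23.4 with Antagomir-31 and 391.8 ± 4.22 with Antagomir-SCR (SD, n = 3 each) at 72 h, a log2 difference of 0.27 (limma adjusted p = 0.056), and Trmt112 had -0.12 (adjusted p = 0.15). Over time Riok2 and Utp23 had -0.89 and -0.89, the largest differences of that list. Of the large subunit list 1 gene passed at 72 h. Tex10, a subunit of the Rix1 complex, rose to 1411 ± 40.05 with Antagomir-31, against 1201 ± 35.2 with Antagomir-SCR (SD, n = 3 each), a log2 difference of 0.23 (limma adjusted p = 0.026). The call held in 14 of 24 alternatives and was lost on leaving out 5 of the 6 arrays of 72 h in turn (adjusted p from 0.0017 to 0.24 over all alternatives). The mean of its probe sets gave 0.12 (adjusted p = 0.24), the replicate number as a block gave an adjusted p of 0.097 and the arrays of 72 h alone gave 0.090. Over time Rpf2 had -0.89 and Nifk 0.84. In the RNA polymerase I list, Taf1b and Taf1d, subunits of the promoter factor SL1, had -0.18 and 0.19 at 72 h (adjusted p = 0.081 and 0.086). Over time the largest differences there were -0.38 for Taf1a and -0.29 for Taf1d.

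Among 21 genes of RNA polymerase III, Polr3a, the largest subunit, rose to 301 ± 8.24 with Antagomir-31 at 72 h, against 253 ± 6.47 with Antagomir-SCR (SD, n = 3 each), a log2 difference of 0.25 (limma adjusted p = 0.037). Of 25 alternatives, 12 kept it past the threshold (adjusted p from 0.0093 to 0.47), and the call was lost on leaving out any 1 of the 6 arrays of 72 h or either Antagomir-31 array of 36 h. The mean of its probe sets gave 0.09 (adjusted p = 0.47). Over time Brf2 and Polr3a had 0.83 and -0.77 in this list, whose median was -0.05. None of the 13 exosome genes passed. Exosc3 and Exosc5 had -0.16 and -0.14 at 72 h (adjusted p = 0.099 and 0.13), and the list's median over time was 0.14, with Exosc5 at 0.87 and C1d at -0.55.

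Of 79 cytosolic ribosomal protein genes, 43 were tested, and none passed. Rpl14 had 0.12 (adjusted p = 0.22) and Rpl27 -0.07 (adjusted p = 0.42) at 72 h, where the list's median was -0.01. Between 72 h and 36 h their direction turned with the scaling. The median was 0.19 as deposited (0.28 over all genes), 0.07 after quantile normalization (0.03) and -0.15 after median centring (-0.07). Of the 43 genes, 40 were higher as deposited (73.9% of all genes), 37 after quantile normalization (52.5%) and 7 after median centring (44.3%). Rpl27a and Rpl14 stood highest after quantile normalization, with 1.01 and 0.66. Of 36 translation factors and tRNA synthetases none passed. Farsb, a subunit of phenylalanyl-tRNA synthetase, had 0.29 (adjusted p = 0.062) and Eef2 -0.11 (adjusted p = 0.22) at 72 h. Their median over time was -0.01, with Vars at 1.05 and Cars at -0.88.

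The list of quiescence genes, which mark resting lymphocytes, was read beside them. None of its 24 genes passed the test of treatment. The mean was higher with Antagomir-31 for 20 of the 24 at 36 h (50.6% of all genes), 19 at 48 h (45.6%) and 14 at 72 h (46.2%), with median log2 differences of 0.06, 0.06 and 0.03. Averaged over the times, 8 of the 24 had an unadjusted p under 0.05, all with higher means (9.47% of all genes in either direction). The smallest limma adjusted p was 0.071. This list was chosen with earlier results of these data known, so these counts are no independent evidence of an effect. Cdkn1b, the cell cycle inhibitor p27, had -0.22 (adjusted p = 0.063) and Foxo3 0.21 (adjusted p = 0.099) at 72 h. Between 72 h and 36 h, 8 of the 24 were past the fold and higher and 4 lower (33.3% and 16.7%, against 14.9% and 13.4% of all genes). Pik3ip1, an inhibitor of phosphoinositide 3-kinase, was higher with 1.66. Btg2, an antiproliferative gene, was lower with -2.54. The median of the list was 0.23 after quantile normalization, 0.51 as deposited and 0.17 after median centring, against 0.23, 0.43 and 0.09 for the 41 genes.

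**Figure D4:**
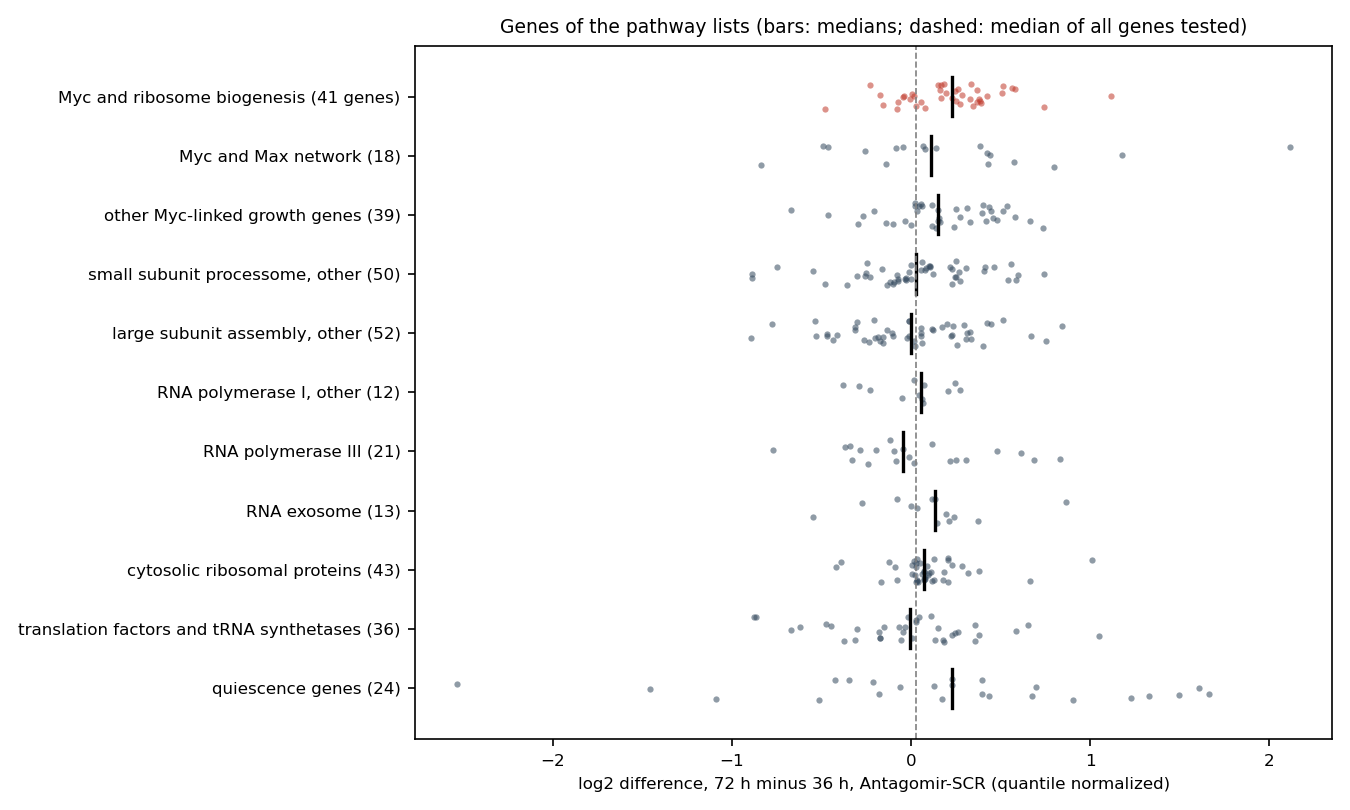
Log2 difference between 72 h and 36 h in Antagomir-SCR cells after quantile normalization (x axis) for each tested gene (points) of the 41 genes and of 10 other lists (y axis, number of genes in brackets), with bars at the medians and a dashed line at the median of all genes tested, 0.03. The medians of the 41 genes and of the quiescence genes stand at 0.23, those of the other ribosome biogenesis lists between 0.00 and 0.06.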

How the data were processed

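Per the labels and the study's methods, GCOS was used for scanning and RMA of the affy package for normalization, in versions not given in the sources used here. What the authors deposited is 1 linear intensity for each of 45101 probe sets and array, of which log2 was taken. Of these probe sets, 34945 had 1 gene symbol, 932 several, 9160 none and 64 were controls. The symbol was looked up by identifier for 34742, and 1 was updated. The members have 84 probe sets, 12 of them with a single one. Arrays of a time correlated at 0.997 to 0.998, and the median residual SD was 0.07 on the log2 scale. The number of arrays limits the precision.

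Treatments were compared in limma 3.58.1, run under R 4.3.3, with tables prepared in Python 3.11.15, in 1 fit over 6 groups, with Benjamini-Hochberg adjustment over 10916 genes and a threshold of 0.05. The fit was tested on simulated data. The members, roles, pathway lists and markers were chosen with earlier results of these data known. Values on every array are given for Myc, for the 2 members with the smallest p at each time and on average, for the 3 highest and 3 lowest over time and for the brightest of each role, and others were added for their p at 72 h. Of each list, called genes or the 2 with the smallest p at 72 h, and the 2 with the largest difference over time, are named. Alternatives covered the filter, the choice of probe set, the normalization, the prior variance, the replicate number as a block and each array left out.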

Additional observations from a re-analysis of the deposited data

How the results depend on the processing

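Of 4051 values of single members recomputed under 25 alternatives, 4048 stayed on their side of the threshold and 3 passed it, all of them Tsr1 at 72 h. Since no member was called, this says little of direction, and 229 of the values changed sign. The members called at 72 h, 0 as reported, became 1 with a mean log2 of at least 6, with median centring and where the prior variance was allowed a trend. Gar1 and Tsr1 gave no value without probe sets of the s_at and x_at classes. The members' median effect was 0.0036 at 36 h and -0.0265 at 48 h after median centring, and leaving out each array gave -0.0068 to 0.0278 and -0.0413 to 0.0037.

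Over all genes, 120 were called at 72 h. That count was 14 with no filter, 283 with a mean log2 of at least 6, 60 with the mean of probe sets, 422 with a trend in the prior variance, 11 with only the arrays of that time, and 9 to 107 on leaving out each array. It was 9 without Antagomir-31 replicate 2, 10 without Antagomir-31 or Antagomir-SCR replicate 3, 42 without Antagomir-SCR replicate 2 and 47 without Antagomir-SCR replicate 4. At 36 h 1 gene was called with the trend, and leaving out each array gave 0 to 1 at 36 h and 48 h. The average had 1 with no filter, 14 at the higher filter, 7 with the mean of probe sets, 36 with the trend and 1 to 5 on leaving out each array. The difference between 72 h and 36 h had 0, 17, 0, 46 and 0 to 7 under those same settings, and that between 72 h and 48 h had 2, 14, 1, 21 and 0 to 7. The cause was not tested.

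Deviations of same-numbered samples correlated weakly (0.052 at 36 h, -0.164 at 48 h, and 0.015, -0.073 and 0.054 at 72 h). With so few arrays in a group, these correlations cannot decide whether same-numbered samples were paired. With the replicate number as a block, 22 genes were called at 72 h, 1 on average, 1 in the difference between 72 h and 36 h and 1 in that between 72 h and 48 h, and no member was called. With the 48 h numbers crossed, a choice made after seeing the data, the replicate block gave 33, 1, 0 and 0.

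Over time in Antagomir-SCR cells, the members' median was -0.0967 as deposited and -0.0792 after median centring between 48 h and 36 h, 0.5064 and 0.1469 between 72 h and 48 h, and 0.4271 and 0.0851 between 72 h and 36 h. The members past the fold and higher numbered 22 as deposited, 4 after median centring and 1 at a difference of at least 1 between 72 h and 48 h, and 15, 2 and 1 between 72 h and 36 h. Between 72 h and 36 h, 1 was lower with median centring or the mean of probe sets, and 0 to 1 on leaving out each array. The shares of all genes for these counts were not computed, so the counts are no result about the members. As deposited, all genes tested shifted by a median of 0.324 between 72 h and 48 h and of 0.277 between 72 h and 36 h. The value for Myc was 1.341 as deposited, 0.982 after median centring and 1.013 on the Antagomir-31 arrays between 72 h and 48 h, and 1.253, 0.911 and 1.029 between 72 h and 36 h.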
